A study of Mus musculus with 6 samples.

Results

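The sarcomere is the contractile unit of heart muscle. In it, thick filaments of myosin pull on thin filaments of actin, the troponin complex on the thin filament switches the pull on when calcium rises, and titin and the Z-disc hold both filament systems in register. In an infarct, heart muscle cells die, inflammatory cells clear them and fibroblasts build a scar, so RNA from infarct tissue carries the transcripts of all these cells.

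Expression of 10 adult sarcomere genes, of 36047 genes that could be read from the data, was compared in mice after myocardial ischemia/reperfusion. The rule for choosing the genes names them and uses no threshold on their values, but the list was drawn up with earlier results of these data known: Myh6, Myl2, Myl3 and Mybpc3 of the thick filament, Actc1, Tnnt2, Tnni3 and Tnnc1 of the thin filament, Ttn, which spans both, and Actn2 of the Z-disc. RNA was sequenced from the infarct area of hearts of C57BL6 mice aged 12 weeks, all of which had undergone ischemia/reperfusion 48 h earlier. The labels give no transgene or mutation. The study's methods state that the mice were female and that the left anterior descending coronary artery was tied and released. Of the mice, 3 received LGK-974, an inhibitor of the acyltransferase Porcupine that Wnt proteins need to leave the cell, by oral gavage, and 3 received the DMSO vehicle. Both groups thus carried the injury, and hearts without infarction were not analysed here.

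The libraries held between 41579787 and 80398211 estimated counts. Transcripts encoded by the mitochondrial genome took 28.2% to 53.7% of these counts in the LGK-974 libraries and 39.3% to 42.8% in the DMSO libraries. CPM values (counts scaled to the same library total) were therefore scaled with the TMM factors of edgeR, and every change was also computed with each library scaled to its counts from nuclear protein-coding genes. The choice mattered: the median log2 fold change of all 20094 tested genes was -0.13 with TMM and 0.056 with the nuclear protein-coding scaling, a shift of 0.19, so a change close to 0 has no firm sign here. DMSO replicate 1 stood apart, with correlations of log2 CPM with the other libraries of 0.841 to 0.925 against 0.923 to 0.966 among the others. The p-values measure the spread between 3 libraries a group. The labels do not say how mice were assigned to surgery days or how much muscle each dissected piece held. In whole tissue, fewer muscle cells and less RNA per muscle cell cannot be told apart.

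All 10 genes passed the filter on low counts, and all were among the abundant transcripts of this tissue. Together they took 7.81%, 10.1% and 7.81% of the nuclear protein-coding counts in the 3 LGK-974 libraries and 6.55%, 10.1% and 10.98% in the 3 DMSO libraries (replicates 1 to 3 in each case, here and throughout). The groups overlapped over almost their whole range, with means of 8.56% ± 1.31 and 9.20% ± 2.34 (SD, n = 3). On the length-normalised TPM scale of the deposited files, the mean level over the 6 libraries was highest for Tnnt2 (5178 TPM), followed by Myh6 (2473), Myl2 (1830), Actc1 (1519), Tnni3 (1066), Ttn (836), Tnnc1 (835), Myl3 (438), Actn2 (277) and Mybpc3 (205). Tnnt2 was above Myh6 and Myh6 above Myl2 in 6 of 6 libraries, and each step from Tnnc1 down to Mybpc3 also held in 6 of 6. Ttn and Tnnc1 were level, with Ttn above Tnnc1 in 3 of 6, and Actc1 did not keep a place relative to its neighbours, with Myl2 above it in 4 of 6 libraries and it above Tnni3 in 4 of 6.

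No adult sarcomere gene passed the edgeR quasi-likelihood test after Benjamini-Hochberg adjustment over all tested genes, as was the case for 0% of all genes (0 of 20094, where 2699 genes had an unadjusted p under 0.05). On the same genes limma-voom also called 0. DESeq2, run on all genes with any count, called 289 of the 23567 genes to which it gave an adjusted p. Tool and filter both differ there, and edgeR with no filter on low counts called 1206 genes. In the main edgeR fit, the estimated log2 fold change was below 0 for 9 of the 10 genes, against 59.5% of all tested genes, and above 0 for Actc1. The median over the 10 genes was -0.37, beside -0.13 over all tested genes. With the nuclear protein-coding scaling the median was -0.19 beside 0.056, and Mybpc3 moved to 0.0052, so that 8 of 10 were then below 0. Relative to the median of all genes, the same 9 genes lay below 0 under both scalings.

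**Figure D1:**
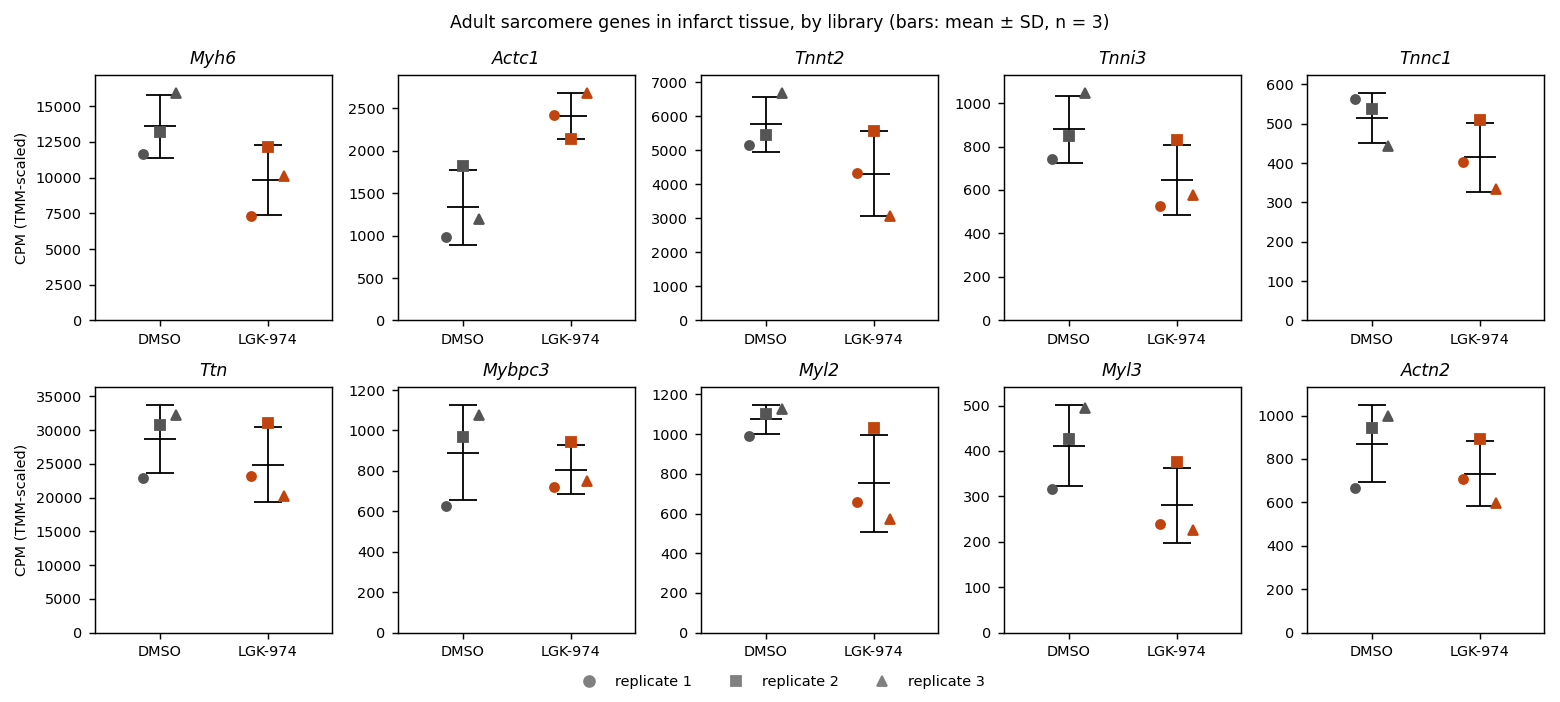
TMM-scaled CPM (vertical axes, each starting at 0) of the 10 adult sarcomere genes in the 3 DMSO and 3 LGK-974 libraries, with 1 symbol per replicate and bars for the mean ± SD. Actc1 is the gene whose 2 groups do not overlap; in the other 9 panels LGK-974 replicate 2 lies among the DMSO libraries.

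The myosin genes of the thick filament were lower in mean with LGK-974, each with overlap. Myh6, the fast alpha heavy chain of the adult mouse ventricle, was at 7280, 12113 and 10122 CPM with LGK-974 and at 11624, 13201 and 15939 CPM with DMSO. LGK-974 replicate 2 lay above the lowest DMSO library, so the groups overlapped. The log2 fold change was -0.47 (SE 0.37, adjusted p = 0.531, edgeR). Myl2, the regulatory light chain, was at 658, 1031 and 572 CPM against 993, 1104 and 1128 CPM. Here the 3 DMSO libraries were tight and the LGK-974 libraries were spread, replicate 2 being near the DMSO level and the others well under it. The log2 fold change was -0.51 (SE 0.28, adjusted p = 0.403). Myl3, the essential light chain of the ventricle, was at 238, 376 and 227 CPM against 317, 425 and 494 CPM, and its log2 fold change of -0.56 (SE 0.28, adjusted p = 0.379) was the lowest estimate among the 10 genes. Myl3 overlapped through LGK-974 replicate 2 alone. Mybpc3, which binds myosin and tunes its release, was at 722, 944 and 750 CPM against 626, 970 and 1076 CPM, with DMSO replicate 1 the lowest library of all and a log2 fold change of -0.15 (SE 0.27, adjusted p = 0.802).

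The 3 troponin genes were lower in mean in the LGK-974 group, each with overlap. Tnnt2, the subunit that anchors the complex to tropomyosin, was at 4325, 5565 and 3063 CPM against 5162, 5457 and 6697 CPM (log2 fold change -0.42, SE 0.34, adjusted p = 0.536). Tnni3, the inhibitory subunit, was at 529, 831 and 578 CPM against 742, 848 and 1047 CPM (log2 fold change -0.44, SE 0.27, adjusted p = 0.433). Tnnc1, the calcium sensor shared by cardiac and slow muscle, was at 403, 508 and 333 CPM against 564, 538 and 443 CPM (log2 fold change -0.31, SE 0.23, adjusted p = 0.509). The second LGK-974 library was the highest of its group in all 3 subunits, while the highest DMSO library was replicate 3 for Tnnt2 and Tnni3 and replicate 1 for Tnnc1.

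Ttn encodes titin, the molecular spring that runs from Z-disc to M-band. It was at 23246, 31059 and 20322 CPM with LGK-974 and at 22984, 30849 and 32321 CPM with DMSO, and its log2 fold change of -0.21 had an SE of 0.41, the widest of the 10 genes (adjusted p = 0.814). Actn2, the alpha-actinin that cross-links actin at the Z-disc, was at 710, 893 and 596 CPM against 667, 944 and 1000 CPM (log2 fold change -0.25, SE 0.26, adjusted p = 0.640). For both genes DMSO replicate 1 was as low as the LGK-974 libraries.

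**Figure D2:**
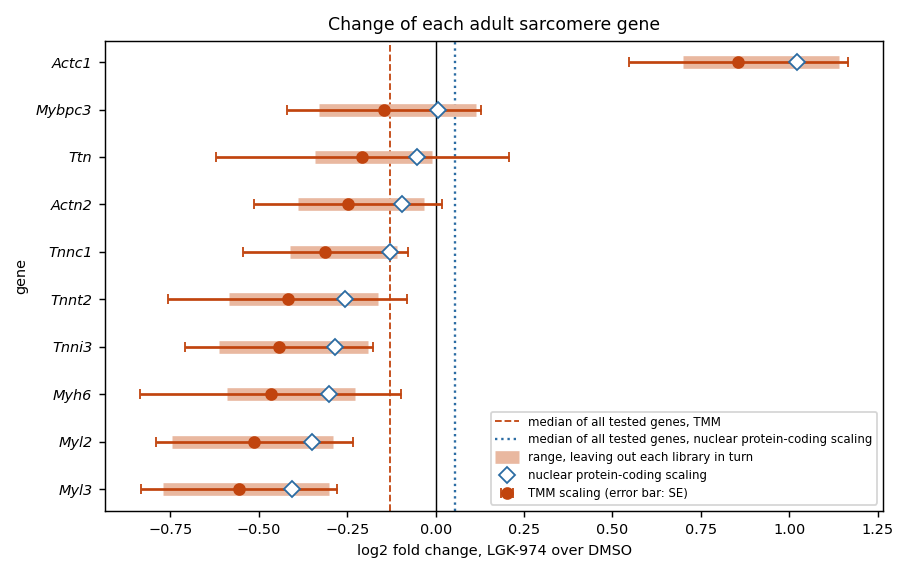
Log2 fold change (LGK-974 over DMSO, horizontal axis) of each adult sarcomere gene from edgeR with TMM scaling (filled circles, bars for the SE) and with nuclear protein-coding scaling (open diamonds), the range when each library in turn was left out (pale bars), and the medians of all tested genes (vertical lines). Actc1 stands at 0.86 and 1.02, and the other 9 genes lie between -0.56 and 0.0052.

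The 9 genes other than Actc1 shared much of their pattern over the libraries. On TMM-scaled CPM, DMSO replicate 3 was the highest library for 8 of the 10 genes and LGK-974 replicate 3 was the lowest for 6. Averaged over the 10 genes, the centred log2 CPM was -0.25, 0.19 and -0.32 in the LGK-974 libraries and -0.12, 0.22 and 0.28 in the DMSO libraries. LGK-974 replicate 2 was thus at the level of DMSO replicates 2 and 3, and DMSO replicate 1 was below it. The genes whose log2 CPM followed this mean most closely over the 6 libraries, among 8117 genes with a mean CPM of at least 10, were Eno3 (Pearson r = 0.996), Acsf2 (0.994), Atp5j2 (0.993), Ndufb8 (0.993) and Ndufb10 (0.993). Eno3 is the muscle enolase of glycolysis, and Atp5j2, Ndufb8 and Ndufb10 are nuclear-encoded subunits of ATP synthase and of respiratory complex I. These correlations describe 6 libraries that share their scaling factors and carry no p. The order of the libraries depended on those factors. The TMM factors were 1.06, 0.816 and 1.40 for LGK-974 and 0.828, 1.001 and 0.997 for DMSO. On plain CPM the 10 genes summed to 42925, 45240 and 54442 with LGK-974 and 36810, 56144 and 60260 with DMSO. LGK-974 replicate 3 was then the highest of its group.

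**Figure D3:**
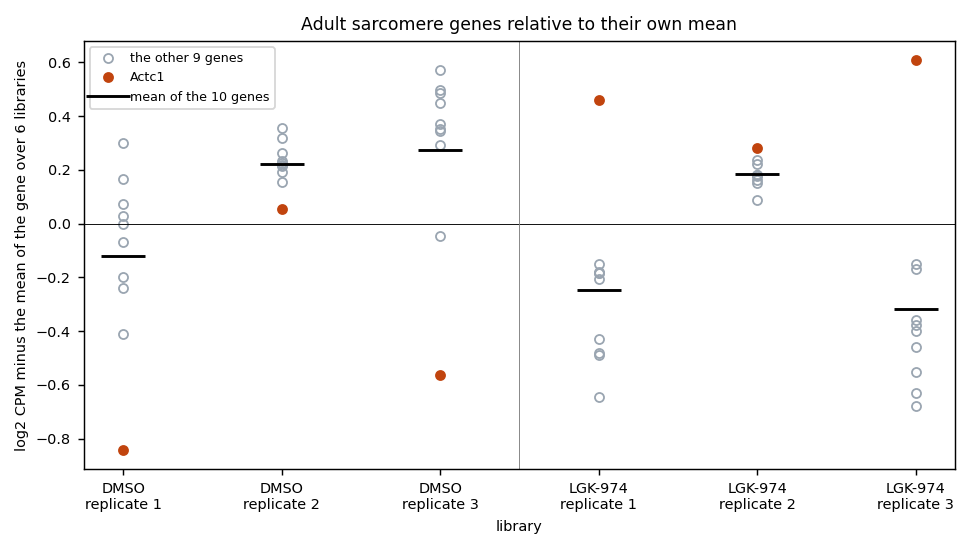
Log2 TMM-scaled CPM of each adult sarcomere gene minus its own mean over the 6 libraries (vertical axis), by library, with Actc1 filled, the other 9 genes as open circles and a black dash for the mean of the 10. Actc1 lies below the dash in the 3 DMSO libraries and above it in the 3 LGK-974 libraries, and of the other genes most lie above 0 in DMSO replicates 2 and 3 and LGK-974 replicate 2.

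Actc1, the cardiac alpha-actin of the thin filament, went the other way from the rest. It was at 2419, 2138 and 2680 CPM with LGK-974 and at 981, 1826 and 1191 CPM with DMSO. Every LGK-974 library was above every DMSO library, which was so for 10.7% of all tested genes. The log2 fold change was 0.86 (SE 0.31, unadjusted p = 0.0251, adjusted p = 0.368, edgeR), where 13.4% of all genes had an unadjusted p under 0.05. DESeq2 gave 0.89 with an adjusted p of 0.0448, and called 1 of the 10 genes, Actc1, beside 1.23% of the genes to which it gave an adjusted p. That call was lost when any single library other than DMSO replicate 2 was left out, with adjusted p-values between 0.0563 and 0.366 against 4.1e-04 without DMSO replicate 2. The fold change stayed between 0.68 and 1.18 in those DESeq2 fits. Without LGK-974 replicate 2, DESeq2 called Myl2 instead (log2 fold change -0.75, adjusted p = 0.0272), among 409 genes called in all. Myl2 was the only other of the 10 genes called in any of the 6 fits. The number of all genes called ranged from 49 without LGK-974 replicate 3 to 2235 without DMSO replicate 3.

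The separation of Actc1 depended on the scale used. As a share of nuclear protein-coding counts it was 0.466%, 0.388% and 0.533% with LGK-974 and 0.144%, 0.327% and 0.213% with DMSO, without overlap. The means of 0.463% ± 0.073 and 0.228% ± 0.092 (SD, n = 3) differed by 2.03-fold, and the exact two-sided permutation p was 0.1, the smallest that 3 against 3 libraries allow. On plain CPM, with no TMM factor, the values were 2562, 1744 and 3718 against 809, 1825 and 1170, so that LGK-974 replicate 2 fell just under DMSO replicate 2. By TPM the same 2 libraries crossed, at 1182 and 1305. Within the 10 genes alone, where library scaling drops out, Actc1 made up 14.9%, 9.85% and 17.5% of their summed TPM with LGK-974 and 4.95%, 8.31% and 4.90% with DMSO, again without overlap.

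The share of nuclear protein-coding counts gave the other 9 genes smaller differences than TMM-scaled CPM did. Relative to the median of all tested genes the differences were not smaller. Myl3 lay at -0.46 with the nuclear protein-coding scaling and -0.43 with TMM, and Mybpc3 at -0.051 and -0.015. Ttn took 4.72% ± 0.83 in the treated and 4.89% ± 1.33 in the vehicle group (SD, n = 3, exact permutation p = 0.9), Myh6 at 1.87% ± 0.42 and 2.31% ± 0.58 (p = 0.4, exact permutation test, n = 3) and Tnnt2 at 0.818% ± 0.201 and 0.978% ± 0.221 (p = 0.5, exact permutation test, n = 3). The lowest p among the 9 was 0.2, for Myl2 and Myl3, which is above the 0.1 that the design can reach. Mybpc3 was level, at 0.153% ± 0.017 and 0.153% ± 0.054. On the plain CPM scale 8 of the 10 genes had a lower mean with LGK-974, and by TPM 6 of the 10.

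When each gene was set against the counts of 20 cardiomyocyte genes outside the sarcomere, such as Ryr2, the calcium release channel, and Ckm, the muscle creatine kinase, 5 of the 10 genes had a lower mean with LGK-974. Per count of those 20 genes, Tnnt2 gave 0.456, 0.404 and 0.359 counts with LGK-974 and 0.432, 0.405 and 0.416 with DMSO. Myh6 gave 0.768, 0.879 and 1.19 counts against 0.972, 0.979 and 0.991. In the DMSO libraries both ratios were tight, with an SD of 0.0135 for Tnnt2 and 0.00966 for Myh6, and the LGK-974 libraries lay on both sides of them. Actc1 gave 0.255, 0.155 and 0.314 counts against 0.0820, 0.135 and 0.0741, without overlap. The 20 genes themselves were lower in 18 cases and higher in 2, with a median log2 fold change of -0.49. The smallest p-values among them were those of Kcnj2, the inward rectifier channel (-0.62, adjusted p = 0.368), Tnni3k, a cardiac kinase (-0.50, adjusted p = 0.368), and Cox8b, a subunit of cytochrome oxidase (-0.59, adjusted p = 0.368). The Kcnj2 values did not overlap on TMM-scaled CPM, at 18.6, 32.0 and 23.1 CPM against 38.1, 32.9 and 42.3 CPM. On that scale every LGK-974 library was below every DMSO library for 7.27% of all genes. Here and below, overlap of single genes outside the 10 was read on that scale alone and can differ on others.

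Markers of other cells of the infarct moved beside these values. All 12 leukocyte markers had a higher mean with LGK-974 (median log2 fold change 0.93), and their summed plain CPM was 471 to 1012 with LGK-974 and 252 to 378 with DMSO. All 10 fibroblast markers were likewise higher in mean (median 0.54), with sums of 2862 to 8361 and 1422 to 2535 CPM. The 10 endothelial markers gave a median of 0.033 with 7 higher and 3 lower, and the 6 smooth muscle markers gave 0.33 with 3 higher and 3 lower. Over all tested genes 59.5% had a log2 fold change below 0. None of these list genes passed the edgeR adjustment. DESeq2 called 6 of the leukocyte and 4 of the fibroblast markers, beside 1.23% of all genes to which it gave an adjusted p. Lyz2, the lysozyme of macrophages, was at 164, 165 and 212 CPM against 52.2, 81.9 and 85.7 CPM, and Postn, the matrix protein periostin of activated fibroblasts, at 458, 349 and 652 CPM against 126, 208 and 160 CPM. The part of the tissue's cell makeup in the sarcomere values was not tested.

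Dissection of atrial or skeletal muscle would also bring sarcomere transcripts. Of 6 atrial markers, Sln, Myl7 and Bmp10 did not pass the count filter, with at most 60 estimated counts in a library, and Myl4 was at 0.344 to 1.17 CPM. Nppa, the natriuretic peptide that the stressed ventricle also makes, was at 1454, 1263 and 1126 CPM against 459, 723 and 691 CPM, without overlap (log2 fold change 1.04, adjusted p = 0.368 by edgeR and 0.0034 by DESeq2). Of 8 skeletal muscle markers, 3 were higher and 5 lower. That list includes Ckm, which is also among the cardiomyocyte genes used above and so is not particular to skeletal muscle. Tnnt3, the fast troponin T, was at 7.28, 3.45 and 6.34 CPM against 1.86, 2.25 and 1.65 CPM, without overlap (log2 fold change 1.57, adjusted p = 0.368 by edgeR and 0.0280 by DESeq2). The skeletal myosins Myh1 and Myh2 reached 3.04 and 3.92 CPM in DMSO replicate 1 and stayed under 1 CPM in the other libraries. Myl2, the light chain of the ventricle, was at 572 to 1128 CPM in the same libraries.

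Actc1 was then compared with the other actin genes. Acta1, the skeletal alpha-actin that the fetal and the loaded heart express, was at 163, 173 and 172 CPM with LGK-974 and at 70.3, 97.8 and 90.9 CPM with DMSO. The LGK-974 libraries agreed to within 5.66 CPM (SD) and lay well clear of the DMSO libraries. The log2 fold change was 0.97 (SE 0.18, adjusted p = 0.368 by edgeR, 7.5e-04 by DESeq2), and the DESeq2 call held in all 6 fits that left out a library. The actins of non-muscle cells, looked at after the values were seen, were also higher in every LGK-974 library. Actb was at 1197, 994 and 1569 CPM against 459, 793 and 671 CPM (log2 fold change 0.97, adjusted p = 0.368 by edgeR, 0.0259 by DESeq2), and Actg1 at 338, 272 and 456 CPM against 134, 223 and 203 CPM (0.93, adjusted p = 0.368 by edgeR, 0.0410 by DESeq2). Acta2, the smooth muscle alpha-actin, was at 68.6, 63.3 and 228 CPM against 52.6, 56.3 and 72.8 CPM, with overlap (0.99, adjusted p = 0.377 by edgeR, 0.175 by DESeq2). Estimates near that of Actc1 were therefore seen in Acta1, Actb, Actg1 and Acta2, which are muscle and non-muscle actins. Actg2, another smooth muscle actin, had an estimate of the opposite sign (log2 fold change -0.74, SE 0.71, edgeR), with overlap. Its level was very low, at a mean of 0.786 CPM with LGK-974 and 1.31 CPM with DMSO. The log2 ratio of Actc1 to Acta1 counts was 3.89, 3.62 and 3.96 against 3.80, 4.22 and 3.71. The mean ratio differed by -0.085 between the groups (exact permutation p = 0.8, n = 3), less than the SD of 0.18 and 0.27 within them. Of the 31-base words of the leading Actc1 transcript 0.832% also occur in transcripts of another gene, mostly Actg2.

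The promoters of both sarcomeric actins, Actc1 and Acta1, were read from RefSeq (GRCm38.p6). Each carries a CArG box, the binding sequence of serum response factor, within 250 bases before the start. The window of each is shown 5′ to 3′ on the gene's strand with the CArG box in capitals, at chr2:114052876-114052972 for Actc1, chr8:123894799-123894898 for Acta1 and, as a member whose estimate went the other way, chr9:110763543-110763642 for Myl3.
Actc1: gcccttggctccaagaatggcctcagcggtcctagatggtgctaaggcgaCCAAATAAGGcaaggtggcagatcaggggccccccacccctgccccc
Acta1: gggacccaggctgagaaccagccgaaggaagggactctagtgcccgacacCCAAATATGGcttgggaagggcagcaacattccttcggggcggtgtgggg
Myl3: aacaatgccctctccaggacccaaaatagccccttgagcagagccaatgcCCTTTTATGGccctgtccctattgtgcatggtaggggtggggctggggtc
The CArG box began 47 bases before the start in Actc1, 73 in Acta1 and 85 in Myl3. Searched on both strands, it was present in the 250 bases upstream of 1.47% of 32851 promoters and in 2 of the 12 promoters listed for the 10 genes. The MEF2 site was present upstream of Ttn and Mybpc3, and in 2.92% of all promoters. The MCAT element, searched as CATTCC on both strands, was present upstream of Tnnt2, Tnnc1, Myl3 and Myh6, as well as Acta1, and in 12.6% of all promoters. A RefSeq start need not be the start of the gene as quantified. A start listed for Myl2 was chr5:122093189, where the gene starts at 122100951. That of Actc1 was chr2:114052875, where the gene's 5′ end is at 114053548. Absence of a motif therefore holds for the windows searched only. A match of letters is a description and not a measured site, and Actc1 and Myl3 hold the same motif with estimates of opposite sign.

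**Figure D4:**
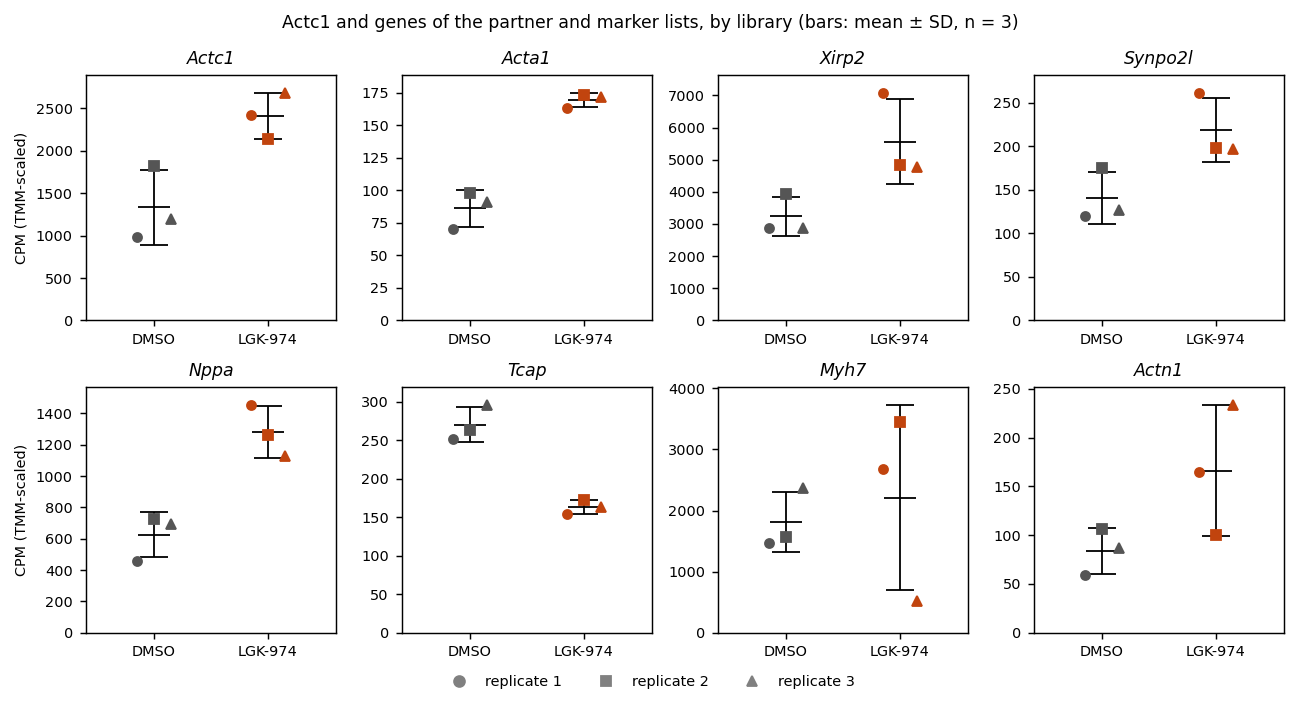
TMM-scaled CPM (vertical axes, each starting at 0) of Actc1 beside Acta1, Xirp2, Synpo2l, Nppa, Tcap, Myh7 and Actn1 in the 3 DMSO and 3 LGK-974 libraries, with bars for the mean ± SD. Acta1, Xirp2, Synpo2l and Nppa are higher in every LGK-974 library, Tcap is lower in every one, and Myh7 spans 520 to 3444 CPM with LGK-974.

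The partners of the 10 genes in the sarcomere were read from 4 lists. Of the thin filament partners, 12 of 13 were tested, and 4 had a higher and 8 a lower mean with LGK-974, where 59.5% of all tested genes were below 0. The median log2 fold change was -0.17, beside -0.13 over all tested genes. With the nuclear protein-coding scaling it was -0.017 beside 0.056. Xirp2, an actin-binding protein of the Z-disc and intercalated disc, was at 7082, 4822 and 4772 CPM against 2885, 3946 and 2886 CPM, without overlap (log2 fold change 0.78, adjusted p = 0.368 by edgeR, 0.0501 by DESeq2). Tnnt1, the slow skeletal troponin T, was at 8.15, 7.48 and 6.80 CPM against 10.3, 7.53 and 11.8 CPM (log2 fold change -0.40, adjusted p = 0.403). In the thick filament and M-band list 3 genes were higher and 8 lower, with a median of -0.42, or -0.27 with the nuclear protein-coding scaling. Its smallest p-values belonged to Myh7b, Trim63, the ubiquitin ligase that tags myosin, and Myom3, with log2 fold changes of -0.85, -0.59 and -0.75 and adjusted p-values of 0.371, 0.390 and 0.409.

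The Z-disc list was the one of the 4 with a median above 0, at 0.32, and 9 of its 14 genes had a higher mean. With the nuclear protein-coding scaling its median was 0.48, and 0.16 with TMM when DMSO replicate 1 was left out. Tcap, the titin cap at the Z-disc, was nevertheless at 154, 173 and 164 CPM with LGK-974 and 252, 264 and 296 CPM with DMSO, without overlap and with a tight spread in both groups (log2 fold change -0.73, SE 0.17, adjusted p = 0.368 by edgeR, 0.0100 by DESeq2). Synpo2l, a Z-disc protein that bundles actin, was at 261, 198 and 197 CPM against 120, 175 and 126 CPM (log2 fold change 0.64, adjusted p = 0.368). Actn1, the alpha-actinin of non-muscle cells, was at 165, 99.9 and 234 CPM against 58.9, 106 and 87.1 CPM (log2 fold change 0.98, adjusted p = 0.368), with overlap. Of the 9 genes of sarcomere assembly and folding, 3 were higher and 6 lower, with a median of -0.17, or -0.014 with the nuclear protein-coding scaling. Smyd1, the methyltransferase needed to assemble myosin, was at 113, 140 and 98.2 CPM against 134, 168 and 177 CPM (log2 fold change -0.45, adjusted p = 0.369), and Hspb1, a small heat shock protein, was at 203, 116 and 150 CPM against 93.4, 131 and 86.4 CPM (0.59, adjusted p = 0.368).

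Adult sarcomere genes were set against paralogs as log2 ratios within a library, which no scaling can move. Myh6 over Myh7, the slow beta heavy chain, was 1.45, 1.81 and 4.28 with LGK-974 and 2.98, 3.07 and 2.75 with DMSO. The DMSO libraries agreed to within 0.16 (SD) and the LGK-974 libraries lay on both sides of them. LGK-974 replicates 1 and 2 held 2674 and 3444 CPM of Myh7, more than any DMSO library (1474, 1574 and 2369 CPM), whereas replicate 3 held 520 CPM, the least of all. The difference of the mean ratios was -0.42 (exact permutation p = 0.7, n = 3) and ranged from -1.30 without LGK-974 replicate 3 to 0.12 without LGK-974 replicate 1. Of the 31-base words in the leading Myh6 transcript, 32.9% are also in Myh7 transcripts, so that reads from those stretches were divided between both genes by the quantification program. Tnni3 over Tnni1, Tnnt2 over Tnnt1, Myl2 over Myl7 and Myl3 over Myl4 differed in mean by -0.11, -0.070, 0.016 and -0.67. None of the 6 ratios had an exact permutation p below 0.5. Tnnt1 is a slow skeletal gene, and Myl7 and Myl4 were listed here as atrial markers. Their ratios were not read here as an adult to fetal switch. Myl7 held 0 to 17 estimated counts a library, Tnni1 20.3 to 66.8 and Myl4 14 to 99. The pseudocount of 1 therefore weighs on the ratio of Myl2 to Myl7. In the DMSO and the LGK-974 libraries alike Tnni3 led Tnni1 and Myl2 led Myl7 by a log2 ratio of at least 8.77.

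Transcripts within a gene were compared next, as percent of the gene's estimated counts. For 7 of the 10 genes a single transcript took over 90% of the counts in every group mean (Actc1, Tnni3, Tnnc1, Mybpc3, Myl2, Myl3 and Actn2). Myh6 was divided between Myh6-205 (63.2% ± 2.8 and 63.5% ± 3.7, SD, n = 3) and Myh6-201 (35.0% ± 2.3 and 34.4% ± 4.5), which did not differ between the groups beyond their spread. Of the leading transcripts, those of Ttn and Myl3 did not overlap between the groups, each with an exact permutation p of 0.1, or 0.5 after adjustment over the 10 genes. The Myl3 difference was small, at 98.3% ± 0.19 and 98.6% ± 0.077, and overlapped by TPM. Among all transcripts with 5% to 95% of a well-counted gene, 11.6% had shares that did not overlap between the groups, beside 3 of 10 such transcripts of the sarcomere genes.

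Tnnt2 pre-mRNA is spliced in several ways near the 5′ end of its coding sequence, where developing and adult hearts use different short exons. The leading transcript, Tnnt2-211, took 53.5%, 54.6% and 48.6% of Tnnt2 counts with LGK-974 and 61.2%, 54.1% and 56.3% with DMSO (exact permutation p = 0.2, n = 3, adjusted p = 0.667). Next came Tnnt2-205, with 27.7%, 26.0% and 34.3% against 17.9%, 24.1% and 19.5%. Tnnt2-206 took 1.15%, 0.856% and 2.36% against 4.77%, 4.15% and 5.63%. Neither Tnnt2-205 nor Tnnt2-206 overlapped between the groups, the first being higher and the second lower with LGK-974. Both were singled out after their values were seen and are given without a test. Tnnt2-206 reached the 5% needed to be listed in DMSO replicate 3 alone. Its mean share was under 5%, so it is not among the transcripts behind the 11.6% given above. Means were 29.3% ± 4.4 and 20.5% ± 3.2 for Tnnt2-205 and 1.46% ± 0.79 and 4.85% ± 0.74 for Tnnt2-206 (SD, n = 3), and both patterns also held on TPM.

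The coding sequences of these transcripts from the start codon to the end of the first long shared exon show where they part. They are given as in GENCODE vM21 (GRCm38, plus strand of chromosome 1), and capitals mark bases that Tnnt2-205 and Tnnt2-211 do not share or, in Tnnt2-206, bases absent from Tnnt2-211.
Tnnt2-205: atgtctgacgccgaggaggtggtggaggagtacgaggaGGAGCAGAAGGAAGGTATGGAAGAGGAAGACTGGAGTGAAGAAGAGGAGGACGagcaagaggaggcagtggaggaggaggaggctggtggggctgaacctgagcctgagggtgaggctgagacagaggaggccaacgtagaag
Tnnt2-211: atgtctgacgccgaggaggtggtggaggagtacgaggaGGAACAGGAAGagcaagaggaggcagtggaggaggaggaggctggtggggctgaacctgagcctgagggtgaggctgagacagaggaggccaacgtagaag
Tnnt2-206: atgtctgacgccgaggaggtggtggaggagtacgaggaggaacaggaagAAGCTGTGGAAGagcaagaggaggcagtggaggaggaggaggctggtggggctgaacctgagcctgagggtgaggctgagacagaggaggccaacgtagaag
Tnnt2-205 holds 53 coding bases that Tnnt2-211 lacks, 34 of them in the exon at chr1:135843781-135843814, and lacks 20, among them the 11 bases of chr1:135841901-135841911 and, farther along, the 9-base exon at chr1:135850379-135850387. Tnnt2-206 differs from Tnnt2-211 by the 12-base exon at chr1:135842015-135842026. The 34-base exon occurs in no other annotated Tnnt2 transcript, but a 30-base form that starts at 135843785 occurs in 4 more, and a 41-base form in Tnnt2-203, which was listed at 0 in 4 of 6 libraries. Transcripts with the 34-base or the 30-base form made up 28.3%, 26.4% and 35.2% of Tnnt2 TPM with LGK-974 and 18.2%, 25.0% and 20.4% with DMSO, which did not overlap although LGK-974 replicate 2 and DMSO replicate 2 were close. Transcripts with the 9-base exon made up 63.9%, 64.3% and 57.1% against 73.5%, 65.9% and 70.2%, again side by side for the second replicates. Because the annotated transcripts also differ at their first exon and the program assigns reads to whole transcripts, the share of a transcript is not a direct count of reads over an exon. The numbers of mapped reads across single junctions were not analysed here.

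**Figure D5:**
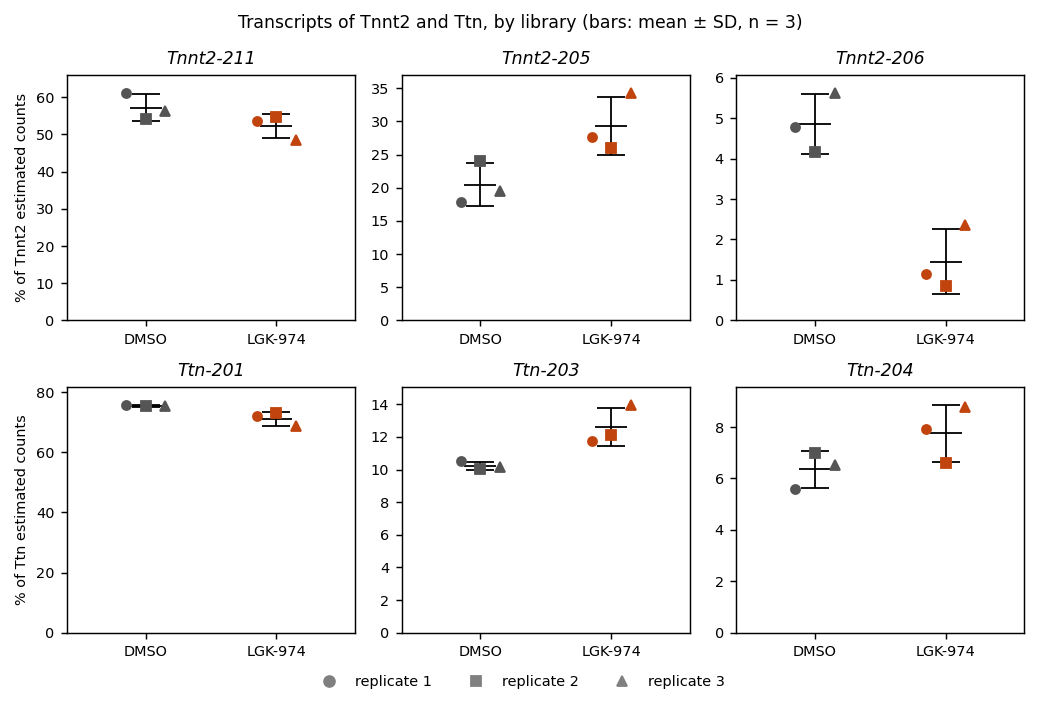
Percent of a gene's estimated counts (vertical axes, each starting at 0) for 3 transcripts of Tnnt2 and 3 of Ttn in the 3 DMSO and 3 LGK-974 libraries, with bars for the mean ± SD. Tnnt2-205 and Ttn-203 are higher in every LGK-974 library, Tnnt2-206 and Ttn-201 are lower in every one, and Tnnt2-211 and Ttn-204 overlap.

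Titin isoforms of different length set how stiff the relaxed heart is, the longer ones having more spring exons. Ttn-201, the leading transcript with 80658 coding bases, took 72.0%, 73.1% and 68.7% of Ttn counts with LGK-974 and 75.8%, 75.3% and 75.3% with DMSO. The DMSO libraries differed from each other by less than 1 percentage point, and all LGK-974 libraries were below them. Ttn-203, which holds all coding bases of Ttn-201 and 24981 more, took 11.8%, 12.1% and 14.0% against 10.5%, 10.04% and 10.2%. Ttn-204 overlapped, at 7.92%, 6.59% and 8.77% against 5.58%, 6.99% and 6.51%. By TPM, which divides counts by transcript length, the mean of Ttn-201 was 26.5% against 27.4% with overlap, whereas Ttn-203 remained higher in every LGK-974 library, at a mean of 3.59% against 2.84%. Ttn-203 was singled out after its values were seen.

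All 10 genes lie on autosomes, with Myh6 and Tnnc1 on chromosome 14 (chr14:54941921-54966927 and chr14:31208312-31211729), Actc1, Ttn and Mybpc3 on chromosome 2 and the rest on chromosomes 1, 5, 7, 9 and 13. For 5 of them exons overlap those of a neighbour, by 114 bases for Myh6, 86 for Tnni3, 453 for Ttn, 60 for Myl2 and 95 for Myl3. The neighbour of Tnni3 lies on the same strand. The kit's strand handling is not given in the sources used here, so reads over bases shared with a neighbour on the other strand cannot be told apart. The leading transcripts of Tnni3, Ttn, Myl2 and Myl3 had 0% of their 31-base words in another gene, searched on both strands. None of the overlaps touches Actc1.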

How the data were processed

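Infarct tissue of 3 LGK-974 and 3 DMSO mice was analysed. Per the study's methods, total RNA was depleted of ribosomal RNA, libraries were made with an RNA Access capture kit and reads were quantified with Kallisto on an index built from the Ensembl GRCm38 transcriptome. For every transcript the authors deposited an expected count (estimated count), a TPM value and an effective length, as Kallisto wrote them. The program's version and read trimming are not given in the sources used here. Of 118489 transcripts, 98.6% were joined by identifier to 36047 genes of GENCODE vM21, and their counts were added up by gene and rounded. Genes reaching 10 counts in 3 or more libraries were tested with edgeR 4.0.16 (quasi-likelihood, TMM, R 4.3.3), with Benjamini-Hochberg adjustment over all tested genes at 0.05. Alternatives were limma-voom on the same genes and DESeq2 1.42.0 on all genes with any count. Shares, ratios (pseudocount 1) and leading transcripts were compared by exact two-sided permutation tests. The fits were tested on simulated data. Motifs were searched in 250 bases of RefSeq promoters, for which all 10 genes had an entry. The 10 genes and all lists were chosen with earlier results of these data known. Named were the 10 genes, their paralogs, up to 3 genes of smallest p per list and the 5 genes of most similar pattern; other genes were singled out after their values were seen. Total counts per library limit counting error only. Other settings are given in the closing section.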

Additional observations from a re-analysis of the deposited data

How the results depend on the processing

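Alternatives were other scalings, other tools, other filters, counts scaled from TPM, a replicate block and the loss of each library in turn. Added after seeing the data were the comparison with 20 other cardiomyocyte genes and DESeq2 without each library. Of 150 refits of the 10 log2 fold changes, 147 kept their sign and side of the threshold. DESeq2 brought Actc1 past it (0.89), and leaving out a library in DESeq2 gave 0.68 to 1.18 for Actc1, with the call lost in 5 of 6 fits, and 0.85 to 1.10 for Acta1. Mybpc3 reversed to 0.0052 with nuclear protein-coding scaling and 0.11 without DMSO replicate 3, where leaving out other libraries gave values down to -0.33.

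The count of genes past the adjusted threshold in edgeR was 0, or 1206 with no filter on low counts, and 0 to 2 when a library was left out. In DESeq2, run on all genes with any count, it was 289, and 49 to 2235 when a library was left out. The unadjusted count of 2699 in edgeR became 4790 without a filter. It became 821 to 4628 when a library was left out, lowest without LGK-974 replicate 3 and highest without DMSO replicate 3. The unadjusted count in DESeq2 was 4477. Against the counts of the 20 other cardiomyocyte genes, the differences of Tnnc1, Ttn and Actn2 turned to 0.127, 28.9 and 0.720 percent of those counts, and with the 10 genes left out of the denominator that of Mybpc3 turned to -0.0014 percentage points. On TPM, the log2 ratio differences of Actc1 over Acta1 and Myl2 over Myl7 turned to 0.0053 and -0.13, and the leading Myh6 transcript to 1.88 percentage points. When a library was left out, the sign changed in 8 of 60 differences of shares, 12 of 36 of ratios and 6 of 60 of leading transcripts, each by less than the SD pooled over the 2 groups of 3. The cause of these changes was not tested.

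The labels do not say whether libraries with the same replicate number were paired. Deviations of same-numbered libraries correlated at 0.475, -0.048 and 0.391. All correlations of differently numbered libraries lay below 0.391, and some of them lay above -0.048. These values do not settle whether the libraries were paired. With the replicate block, 0 genes passed adjustment, 3312 had an unadjusted p under 0.05 and Actc1 was at 0.90 (adjusted p = 0.323). The block was fitted in edgeR alone, where no gene was called without it either, so it does not bear on the DESeq2 calls. The adjusted p of Actc1 ran from 0.0448 to 0.772 over the edgeR, limma-voom and full DESeq2 fits, and was 4.1e-04 in DESeq2 without DMSO replicate 2. With 3 libraries a group, an exact test cannot go below 0.1.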
